A study of Mus musculus with 2 samples.

Results

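The genes described are 10 regulators of the G1 phase of the cell cycle, taken by gene symbol from the 31053 genes of the files. They are the D-type cyclins Ccnd1, Ccnd2 and Ccnd3, cyclin E1 (Ccne1), the kinases Cdk4, Cdk6 and Cdk2, and the inhibitors Cdkn1a (p21), Cdkn1b (p27) and Cdkn2c (p18). All 10 had unique molecular identifiers (UMIs, 1 for each captured transcript molecule) in both libraries. The study captured GFP-positive cells, sorted as Lgr5-expressing stem cells, from the jejunum of female Lgr5-eGFP-IRES-CreER mice aged 10 to 12 weeks, with droplet-based 3' chemistry. One group received an Fc control protein and the other an antagonist of the Wnt receptors FZD5 and FZD8. Mice of both groups carried the reporter allele and went through the same sort, so neither group is a wild type. Per the labels 3 mice per condition went into 1 library, and the mouse behind each cell is not labelled. The sources used here do not give the dose or the length of treatment. With 1 library per group no test was possible. Intervals below are exact 95% intervals for counting error only, and they compare the libraries, not the conditions.

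In G1, D-type cyclins bind Cdk4 or Cdk6, and the active kinases phosphorylate the retinoblastoma protein, which releases E2F factors. E2F factors switch on the genes of S phase, among them Ccne1, whose product activates Cdk2. Cdkn2c belongs to the INK4 family, which binds Cdk4 and Cdk6 themselves, while Cdkn1a and Cdkn1b bind cyclin and kinase complexes. In the small intestine, stem cells at the crypt base and their transit-amplifying daughters divide, Wnt signals maintain them, and the cells leave the cycle as they become absorptive or secretory cells.

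The kept cells numbered 11263 from control mice and 11019 from antagonist mice, with a median of 4478 and 2732 UMIs per cell. Epcam, an epithelial marker, had a UMI in 98.2% and 97.7% of them, and fibroblast and endothelial markers together had 22 and 8 UMIs. Sex-linked transcripts differed between the libraries, while the labels call the mice of both female. Xist was at 1.33 UMIs per 1000000 UMIs of the library (CPM, the unit of all levels below) with the control protein and at 512 with the antagonist. Y-linked transcripts were at 106 and 5.60 CPM. Sex and treatment therefore cannot be told apart in any value below. Lgr5 itself was at 66.2 and 3.09 CPM. The libraries shared 145 barcode sequences, 67 of them kept in both, and leaving those cells out changed no call of a member over all cells.

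On GRCm38 the D cyclin genes lie at chr7:144929931-144939925 (Ccnd1, minus strand), chr6:127125162-127152193 (Ccnd2, minus strand) and chr17:47505051-47599691 (Ccnd3, plus strand). The kinase genes lie at chr10:127063534-127067920 (Cdk4, plus strand), chr5:3341485-3531008 (Cdk6, plus strand) and chr10:128697939-128705031 (Cdk2, minus strand), and Ccne1 at chr7:38097984-38107534 (minus strand). The inhibitor genes lie at chr17:29090976-29100727 (Cdkn1a, plus strand), chr6:134920401-134925513 (Cdkn1b, plus strand) and chr4:109660876-109667189 (Cdkn2c, minus strand). No annotated gene overlapped a member on the same strand. Genes on the opposite strand overlapped all members except Ccne1, Cdkn1b and Cdkn2c. The sources used here do not say whether the counting used the strand, so the other members may hold reads of those neighbours.

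The promoters of Cdk6, Ccne1, Cdkn1a and Cdkn2c are shown because these genes differed at least 1.5-fold between the libraries over all cells. RefSeq promoter sequences (GRCm38.p6, 250 bases before to 50 bases after the annotated start, 5′ to 3′ on the gene's strand) were found for 8 of the 10 members, all except Ccnd1 and Ccnd2. Capitals mark matches, on either strand, to an E-box (CACGTG), a GC box (GGGCGG), the p53 decamer, an E2F motif (TTTGGCGC, TTTCCCGC, TTTGCCGC or TTTCGCGC) or a TCF motif, which was searched as CTTTGAA, in the form CTTTGAT, in the form CTTTGTA and in the form CTTTGTT.
Cdk6, chr5:3343643-3343942, plus strand: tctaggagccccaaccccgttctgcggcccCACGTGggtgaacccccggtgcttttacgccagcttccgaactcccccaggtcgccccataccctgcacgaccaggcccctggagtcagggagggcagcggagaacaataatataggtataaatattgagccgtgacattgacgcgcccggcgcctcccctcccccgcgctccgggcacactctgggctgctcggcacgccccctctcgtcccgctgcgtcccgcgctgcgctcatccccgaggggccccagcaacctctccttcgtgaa
Ccne1, chr7:38107441-38107740, minus strand: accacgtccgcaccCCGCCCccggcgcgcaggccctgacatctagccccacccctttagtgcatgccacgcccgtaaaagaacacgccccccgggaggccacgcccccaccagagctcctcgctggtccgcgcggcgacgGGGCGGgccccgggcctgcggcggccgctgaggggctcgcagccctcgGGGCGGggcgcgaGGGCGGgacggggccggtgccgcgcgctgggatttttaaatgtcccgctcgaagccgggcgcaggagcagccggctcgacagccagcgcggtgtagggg
Cdkn1a, chr17:29090729-29091028, plus strand: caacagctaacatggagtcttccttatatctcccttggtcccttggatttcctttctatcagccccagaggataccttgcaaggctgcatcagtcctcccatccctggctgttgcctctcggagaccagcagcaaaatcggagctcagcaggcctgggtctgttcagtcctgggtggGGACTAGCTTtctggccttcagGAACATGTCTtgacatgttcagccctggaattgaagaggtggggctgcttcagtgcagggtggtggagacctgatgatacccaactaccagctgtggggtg
Cdkn2c, chr4:109666707-109667006, minus strand: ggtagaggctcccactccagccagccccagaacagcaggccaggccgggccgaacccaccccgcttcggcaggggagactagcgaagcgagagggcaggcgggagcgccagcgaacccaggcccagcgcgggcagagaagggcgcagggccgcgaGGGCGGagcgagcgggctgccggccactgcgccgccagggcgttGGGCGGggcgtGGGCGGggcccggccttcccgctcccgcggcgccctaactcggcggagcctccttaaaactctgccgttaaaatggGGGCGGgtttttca

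The p53 decamer is 1 of the pair of like blocks that make up a full p53 site, and full sites were not searched. The Cdkn1a window held 2 such decamers, starting at -73 and -51 relative to the annotated start, and no other member's window held one. Cdkn1a, Ccnd3 and Cdkn2c each had 2 RefSeq promoter entries. The entry nearest the GENCODE gene start was used, and the other entry of each is not described. The decamer was in 8.36% of 32851 RefSeq promoters of the same length. The Cdk6 window held 1 E-box, at -220, a motif present in 7.15% of promoters. The windows of Cdk6 and Cdkn2c were placed by RefSeq starts. They lie wholly inside the GENCODE gene positions given above and do not reach the gene starts there. GC boxes were in 6 of the 8 windows, among them 4 matches each in Ccne1 and Cdkn2c, and in 35.7% of all promoters. The E2F motif was found in the Cdk2 window alone (2.26% of promoters), and the TCF motif in those of Ccnd3 and Cdk4 (16.9%). Matches are letters in a window, and these windows were not assayed.

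Over all kept cells, Cdk6 stood out as the member that was lower in the antagonist library, and Ccne1, Cdkn1a and Cdkn2c were higher. A gene counted as higher or lower where its level differed at least 1.5-fold with an interval of the ratio that excluded 1. By that rule 1 of the 10 members was lower, beside 17.1% of the 13757 genes with 20 or more UMIs, and 3 were higher, beside 5.74%. The count of lower members is thus not above the share among all genes. The median log2 ratio of antagonist over control was 0.02 over the members and -0.15 over all genes. Scaling by the median ratio of genes moved the latter to -0.02 and left each member's direction as it was.

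**Figure D1:**
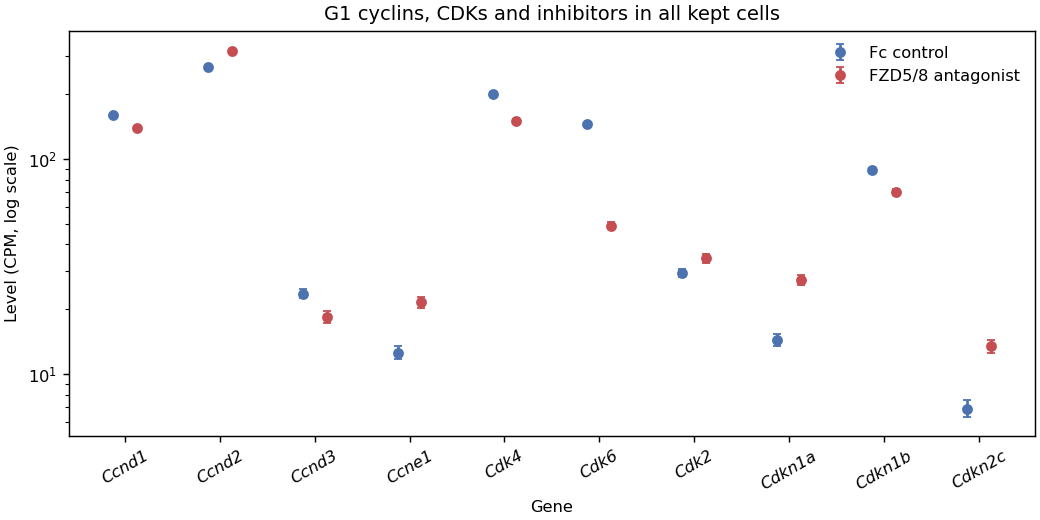
Level of each gene in CPM (log axis) over all kept cells, in the Fc control library (blue) and the FZD5/8 antagonist library (red), with exact 95% Poisson intervals for counting error. Cdk6 sits at 144 in the control and 48.9 in the antagonist library, the widest gap of the plot, while Ccnd1 and Cdk2 lie close together.

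Among the D cyclins, which couple growth factor and Wnt signals to the cycle, Ccnd1 was at 159 CPM (95% interval 156 to 162) in the control and 139 (136 to 142) in the antagonist library. Ccnd2 was at 266 (262 to 269) and 317 (312 to 321), and Ccnd3 at 23.7 (22.5 to 24.9) and 18.4 (17.3 to 19.6). Ccnd2 was thus higher in the antagonist library and Ccnd1 and Ccnd3 were lower, each by less than 1.5-fold. The ratios of antagonist over control were 0.876 (0.85 to 0.902) for Ccnd1, 1.19 (1.17 to 1.22) for Ccnd2 and 0.778 (0.718 to 0.843) for Ccnd3. Ccnd2 gave 59.3% (58.7 to 59.8) of all D cyclin UMIs in the control and 66.8% (66.2 to 67.3) in the antagonist library.

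Cdk6, a partner of the D cyclins, was at 144 CPM (141 to 147) with the control protein and 48.9 (47.0 to 50.8) with the antagonist. The antagonist level was 0.339 times (0.324 to 0.354) that of the control. Cdk4, the other partner, was at 200 (196 to 203) and 149 (146 to 153), a ratio of 0.747 (0.727 to 0.768), also lower but short of 1.5-fold. Without the deepest 5% of cells Cdk4 passed 1.5-fold as well. Of the UMIs of these kinases together, Cdk6 gave 41.9% (41.3 to 42.6) in the control and 24.7% (23.9 to 25.5) in the antagonist library.

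Ccne1, which carries cells into S phase, was at 12.6 CPM (11.7 to 13.5) in the control and 21.6 (20.4 to 22.9) with the antagonist, for a ratio of 1.72 (1.57 to 1.88). Its kinase Cdk2 was at 29.5 (28.2 to 30.9) and 34.5 (32.9 to 36.1), a ratio of 1.17 (1.09 to 1.24). Both were higher in the antagonist library, Cdk2 by much less than 1.5-fold.

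The inhibitors differed in direction. Cdkn1a was at 14.4 CPM (13.5 to 15.3) in the control and 27.4 (26.1 to 28.9) with the antagonist, for a ratio of 1.91 (1.76 to 2.07). Cdkn2c was at 6.92 (6.30 to 7.58) and 13.5 (12.5 to 14.5), a ratio of 1.95 (1.73 to 2.19). Cdkn1b was at 88.6 (86.3 to 90.9) and 70.1 (67.9 to 72.4), a ratio of 0.792 (0.760 to 0.825). Cdkn1a and Cdkn2c were therefore higher and Cdkn1b was lower with the antagonist. For Cdkn1a the size of the difference depended on which cells were summed. Its log2 ratio was 0.93 over all cells, 1.73 without the differentiated gates described below, and 0.56 without Lgr5-positive cells, the last below 1.5-fold.

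Cells were then split by 24 mitotic genes, such as Mki67, Top2a and Ccnb1. Cells with 3 or more UMIs of these genes counted as having mitotic transcripts, 6245 in the control and 7302 in the antagonist library. Cells with 0 counted as without, 1691 and 1332. The gate depends on depth: the median was 5852 and 3377 UMIs in cells with mitotic transcripts, and 2708 and 1891 in cells without. Levels were therefore also read in cells thinned to 3000 UMIs.

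The same 4 members passed 1.5-fold between the libraries in cells with mitotic transcripts as over all cells. Cdk6 was lower, 1 member of 10 beside 15.6% of all genes, and Ccne1, Cdkn1a and Cdkn2c were higher, 3 of 10 beside 5.39%. Cdk6 was at 134 CPM (131 to 138) in the control and 49.2 (47.1 to 51.2) in the antagonist library. Cdkn1a was at 10.6 (9.67 to 11.6) and 23.1 (21.7 to 24.5), a ratio of 2.18 (1.95 to 2.43). Ccne1 was only just past the threshold, at 1.51 (1.37 to 1.67), and with the gate read in thinned cells Cdkn1a was the 1 member still counted as higher. Cdk2 had a ratio of 1.08 (1.004 to 1.16), with a log2 ratio of -0.01 when the gate was read in thinned cells.

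Without mitotic transcripts, Cdk4 joined Cdk6 among the lower members, 2 of 10 beside 13.8% of all genes. Ccne1, Cdkn1a and Cdkn2c were again higher, 3 of 10 beside 10.3%. Cdk4 was at 163 CPM (153 to 173) in the control and 91.8 (81.9 to 103) with the antagonist, for a ratio of 0.565 (0.496 to 0.642). Cdk6 was at 159 (149 to 169) and 46.1 (39.1 to 53.9), a ratio of 0.290 (0.243 to 0.343). Cdkn1a was at 27.2 (23.2 to 31.6) and 58.8 (50.9 to 67.5). The calls of Ccne1 and Cdkn2c rest on few counts, 35 and 43 UMIs for the former and 17 and 22 for the latter. Ccnd2 (ratio 1.19) and Cdk2 (1.31) were higher in the antagonist library here, but both turned lower in cells thinned to 3000 UMIs.

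**Figure D2:**
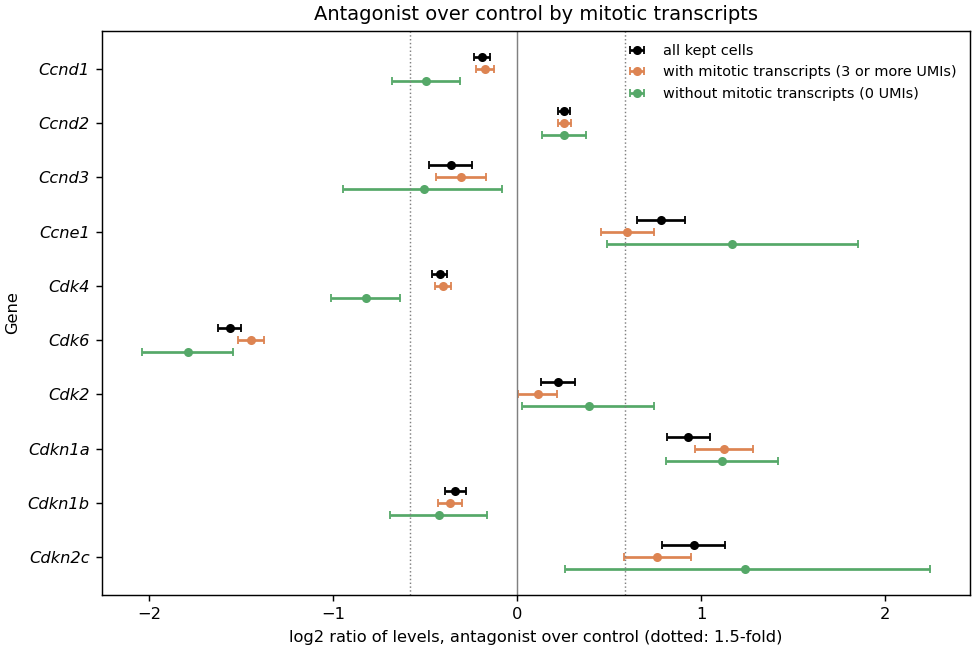
log2 ratio of levels, antagonist over control, for each gene over all kept cells (black), cells with mitotic transcripts (orange) and cells without (green), with exact 95% intervals for counting error; dotted lines mark 1.5-fold. Cdk6 lies left of the 1.5-fold line in all 3 sets of cells and Ccne1, Cdkn1a and Cdkn2c right of it, while Cdk4 passes it on the left only in cells without mitotic transcripts.

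Within each library, Ccne1 and Cdkn2c were higher and Cdkn1a was lower in cells with mitotic transcripts than in cells without. In the control library that made 2 members higher, beside 6.33% of all genes, and 1 lower, beside 7.84%. In the antagonist library Cdk4 was also higher, which made 3 members beside 8.86%, with Cdkn1a the 1 lower member beside 12.0%. Cdkn2c, whose protein restrains Cdk4 and Cdk6, was at 8.74 CPM with and 2.75 without mitotic transcripts in the control library, and at 14.8 and 6.50 in the antagonist library. Cdkn1a was at 10.6 with and 27.2 without in the control library, a ratio of 0.390 (0.326 to 0.467), and the antagonist ratio was 0.392 (0.337 to 0.459).

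The lower Cdkn1a was not detectable in cells with no Lgr5 UMI that met none of the differentiated gates described below. The ratio of with over without was 0.892 (0.591 to 1.40) in the control and 0.919 (0.674 to 1.29) in the antagonist library. Both intervals include 1, and the cells without held just 26 and 42 Cdkn1a UMIs. Such cells can hold markers below the gate thresholds. Tuft markers were at 12.7 CPM with and 14.0 without mitotic transcripts in the control, and at 88.9 and 20.1 in the antagonist library. Goblet markers were at 538 and 694 in the control, and at 3444 and 620 in the antagonist library. The part of these markers in the Cdkn1a ratios was not tested. In the same cells Cdk6 was lower with mitotic transcripts, at 0.627 times (0.576 to 0.685) the level without in the control and 0.688 (0.578 to 0.826) in the antagonist library. Their median depth was 5253 UMIs with and 2228.5 without mitotic transcripts in the control, and 3363 and 1686 in the antagonist library. Summed stem cell markers were at 3690 and 5265 CPM in the control, and at 840 and 1312 in the antagonist library. The part of either in these Cdk6 ratios was not tested. Over all cells the Cdk6 ratio was 0.844 in the control and 1.07 (0.907 to 1.26) in the antagonist library, the latter with an interval that includes 1. With the gate read in thinned cells the control ratio turned to higher, as did that of Ccnd3.

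In cells thinned to 3000 UMIs, Cdkn1b and Cdkn2c climbed with the number of mitotic UMIs per cell. In the control library Cdkn1b was at 70.9 CPM (63.5 to 78.9) in cells with 0 mitotic UMIs and at 140 (130 to 150) in cells with 10 or more. With the antagonist it was at 42.7 (33.3 to 54.0) and 84.7 (77.6 to 92.4). Cdkn2c was at 3.60 (2.09 to 5.76) and 15.4 (12.3 to 19.0) in the control, and at 4.27 (1.72 to 8.81) and 19.2 (15.9 to 23.0) in the antagonist library. Cdkn1a went the other way, from 25.0 (20.7 to 29.9) to 6.61 (4.65 to 9.11) in the control and from 48.8 (38.7 to 60.8) to 16.6 (13.5 to 20.1) in the antagonist library.

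Ccne1 was highest between the ends of this range. In the control library it was at 9.09 CPM (6.58 to 12.3) with 0 mitotic UMIs, 21.5 (16.8 to 27.0) with 3 to 5, 21.1 (15.2 to 28.7) with 6 to 9, and 11.1 (8.49 to 14.2) with 10 or more. The antagonist values were 18.3 (12.4 to 26.1), 26.4 (20.1 to 34.1), 29.9 (23.7 to 37.2) and 16.9 (13.8 to 20.5), and of these neighbours the intervals of the last 2 do not overlap. Ccnd3 had a like shape in the control library, from 23.1 (18.9 to 27.8) through 34.2 (28.2 to 41.0) to 14.5 (11.5 to 18.0). Cdk6 in the control library stayed between 138 and 165 across the 5 classes. With the antagonist it was at 36.0 (27.4 to 46.5) with 0 mitotic UMIs and 47.5 (42.2 to 53.3) with 10 or more, below every control class.

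**Figure D3:**
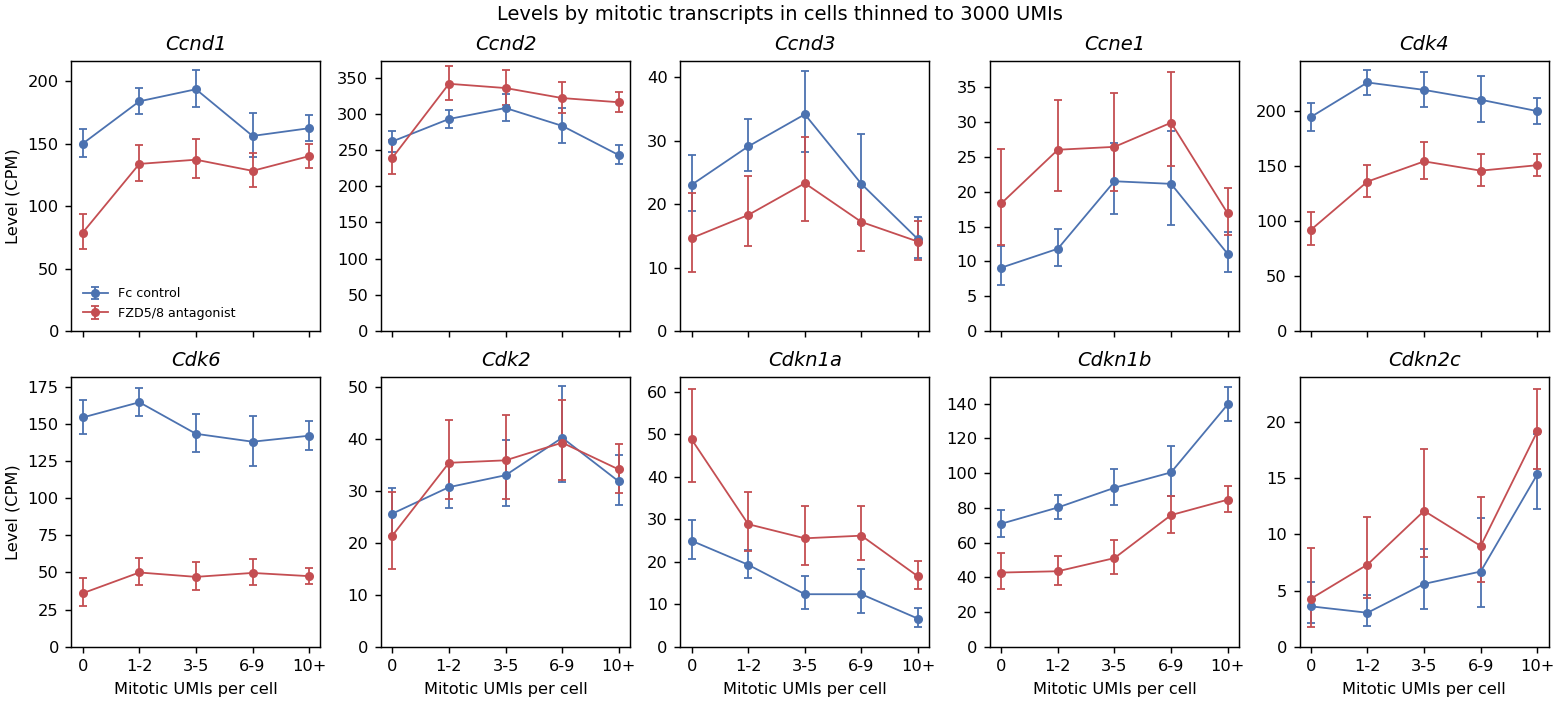
Level of each gene in CPM against the number of mitotic UMIs per cell, in cells thinned to 3000 UMIs, for the Fc control (blue) and FZD5/8 antagonist (red) libraries with exact 95% Poisson intervals. Cdkn1b and Cdkn2c are highest in the class of 10 or more, Cdkn1a is highest at 0, and the Cdk6 curves are apart in every class.

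Cells with 3 or more UMIs of 20 S phase genes and 0 mitotic UMIs were set against cells with 0 of both lists. All of these cells had no Lgr5 UMI and met none of the differentiated gates. Ccnd1 was at 211 CPM (188 to 236) in the S phase cells and 142 (112 to 178) in the others of the control library, and at 198 (170 to 230) and 111 (79.6 to 152) in the antagonist library. The ratios were 1.48 (1.15 to 1.93) and 1.78 (1.253 to 2.57). Cdk4 was likewise higher in the S phase cells, at 1.35 times (1.08 to 1.71) and 1.67 times (1.14 to 2.49). Not all members did so. Control Cdk6 had the lower level in the S phase cells, at 181 CPM (159 to 204), against 238 (198 to 283) in the others. These level intervals overlap, as do those of control Cdk4, at 247 (222 to 275) and 183 (149 to 223). Overlap of level intervals is a looser reading than the ratio intervals given for Ccnd1 and Cdk4. With the antagonist Cdk6 was at 67.5 (51.4 to 87.1) and 64.1 (40.6 to 96.1). Antagonist Cdk2 was at 58.4 (43.4 to 76.7) and 16.7 (6.13 to 36.4), on 51 and 6 UMIs. The share of all genes past 1.5-fold was not computed for this split. For Cdkn1a the ratios were 0.901 (0.296 to 3.27) and 0.523 (0.22 to 1.27), with intervals that include 1. Median depth moved with this split, at 3951.5 UMIs in S phase cells against 1396 in the others with the control protein, and at 2391 against 1183 with the antagonist, and its part in these ratios was not tested.

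Cell types were gated by the share of UMIs from marker genes, with thresholds set after seeing the data. The gates held 149 control and 426 antagonist Paneth-gated cells, 262 and 397 goblet-gated, 257 and 257 tuft-gated, 56 and 62 enteroendocrine-gated, and 188 and 481 enterocyte-gated cells. The remaining cells were split by Lgr5 into 2915 and 136 Lgr5-positive cells, with 1 or more UMIs, and 7357 and 9201 Lgr5-negative cells. Cells that met more than 1 gate, 79 and 59, stayed apart.

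Cdkn1a was highest in differentiated cells. In the control library it was at 275 CPM (220 to 339) in enteroendocrine-gated, 147 (129 to 167) in tuft-gated and 88.4 (75.4 to 103) in enterocyte-gated cells, and these 3 intervals do not overlap. Goblet-gated cells followed at 28.6 (22.2 to 36.3), then Lgr5-negative cells at 7.76 (6.89 to 8.72), Lgr5-positive cells at 4.39 (3.50 to 5.44) and Paneth-gated cells at 3.03 (1.38 to 5.75). The intervals of the last 2 overlap. Tuft, enteroendocrine and enterocyte gates together held 4.45% of the control cells but 51.2% (48.0 to 54.4) of their Cdkn1a UMIs.

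The same 3 gates held 7.26% of the antagonist cells and 24.8% (22.7 to 27.1) of their Cdkn1a UMIs. Within these gates the intervals of the libraries overlapped, with 164 CPM (135 to 196) in tuft-gated, 200 (140 to 277) in enteroendocrine-gated and 102 (88.9 to 116) in enterocyte-gated antagonist cells. The undifferentiated cells differed. Lgr5-negative cells were at 21.3 (20.0003 to 22.7), a ratio of 2.75 (2.41 to 3.15). Lgr5-positive antagonist cells were at 33.5 (26.1 to 42.3), a ratio of 7.62 (5.47 to 10.6), on 70 UMIs in 136 cells. These antagonist cells had a median of 4196 but a mean of 15376 UMIs, against 5364 and 6484 in the control, so that deep cells weigh heavily in the summed level. After thinning to 3000 UMIs, a Cdkn1a UMI was in 11.4% (5.59 to 19.9) of 88 antagonist and 0.968% (0.608 to 1.46) of 2273 control Lgr5-positive cells. Doublets were not removed, and their part was not tested.

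Summed tuft, enterocyte and goblet markers were also higher with the antagonist in these pooled gates, but not all of them in cells without mitotic transcripts. In Lgr5-negative cells the summed tuft markers were at 13.0 CPM in the control and 81.3 in the antagonist library, enterocyte markers at 1437 and 4349, and goblet markers at 559 and 3096. In Lgr5-positive cells tuft markers were at 20.95 and 148, and enterocyte markers at 1030 and 4785. In Lgr5-negative cells without mitotic transcripts, tuft markers were at 14.0 and 20.1 and enterocyte markers at 1207 and 4033. There goblet markers were at 694 and 620 and Paneth markers at 12353 and 4043, lower with the antagonist. Cdkn1a in those cells was at 8.67 (5.66 to 12.7) and 22.8 (16.5 to 30.9). All 10 tuft and 12 enterocyte markers had UMIs in both libraries. Their part in the Cdkn1a difference was not tested.

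Cdk6 was highest in the undifferentiated gates. In the control library Lgr5-positive cells were highest at 196 CPM (190 to 202), followed by Lgr5-negative cells at 149 (145 to 153). Enteroendocrine-gated cells were at 76.6 (49.1 to 114), tuft-gated at 59.3 (48.0 to 72.5) and goblet-gated at 53.8 (44.8 to 64.0), 3 neighbours whose intervals overlap. Paneth-gated cells at 22.9 (17.8 to 29.0) and enterocyte-gated cells at 15.4 (10.3 to 22.2) were lowest, again with overlapping intervals. The place of the Paneth gate is uncertain. Its Paneth markers alone took 618342 CPM, and its cells had a median of 1351 but a mean of 19949 UMIs.

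Cdk6 was lower with the antagonist in the undifferentiated gates by a like ratio, 0.344 (0.289 to 0.407) in Lgr5-positive and 0.352 (0.335 to 0.369) in Lgr5-negative cells. Tuft-gated cells had a ratio of 0.357 (0.192 to 0.619) and goblet-gated cells one of 0.563 (0.400 to 0.784). In enteroendocrine-gated cells, at 0.580 (0.225 to 1.33), enterocyte-gated cells, at 0.697 (0.385 to 1.248), and Paneth-gated cells, at 1.21 (0.860 to 1.72), the interval included 1. Lgr5-positive cells were above Lgr5-negative cells in both libraries among cells with mitotic transcripts, by 1.39 times (1.32 to 1.46) in the control and 1.26 times (1.04 to 1.504) in the antagonist library. The latter rests on 100 Lgr5-positive cells with a median of 5970.5 but a mean of 20009 UMIs. Without mitotic transcripts the control levels were closer, at 241 CPM (215 to 269) and 207 (191 to 224), and the antagonist library held 13 such Lgr5-positive cells. These compare gates of cells from 1 library, and cells are not replicates.

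The share of cells with a Cdk6 UMI was also highest in Lgr5-positive cells. After thinning to 3000 UMIs, 43.5% (41.4 to 45.5) of control Lgr5-positive cells and 33.8% (32.4 to 35.2) of Lgr5-negative cells had one, against 5.45% (2.52 to 10.1) of enterocyte-gated cells. The other control gates did not keep the order of their levels, with 19.3% (10.05 to 31.9) in Paneth-gated, 15.9% (6.64 to 30.1) in enteroendocrine-gated, 14.5% (10.3 to 19.5) in goblet-gated and 9.52% (5.74 to 14.6) in tuft-gated cells. Antagonist Lgr5-positive, Lgr5-negative and enterocyte-gated cells had shares of 23.9% (15.4 to 34.1), 13.4% (12.3 to 14.4) and 3.44% (1.58 to 6.42). Without thinning, the control shares of these 3 gates were 62.7%, 46.0% and 13.3%, at median depths of 5364, 3897 and 7617.5 UMIs, and the antagonist shares were 44.1%, 17.5% and 4.37%, at 4196, 2684 and 3411. Thinning left out 3727 control and 5983 antagonist cells in all.

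**Figure D4:**
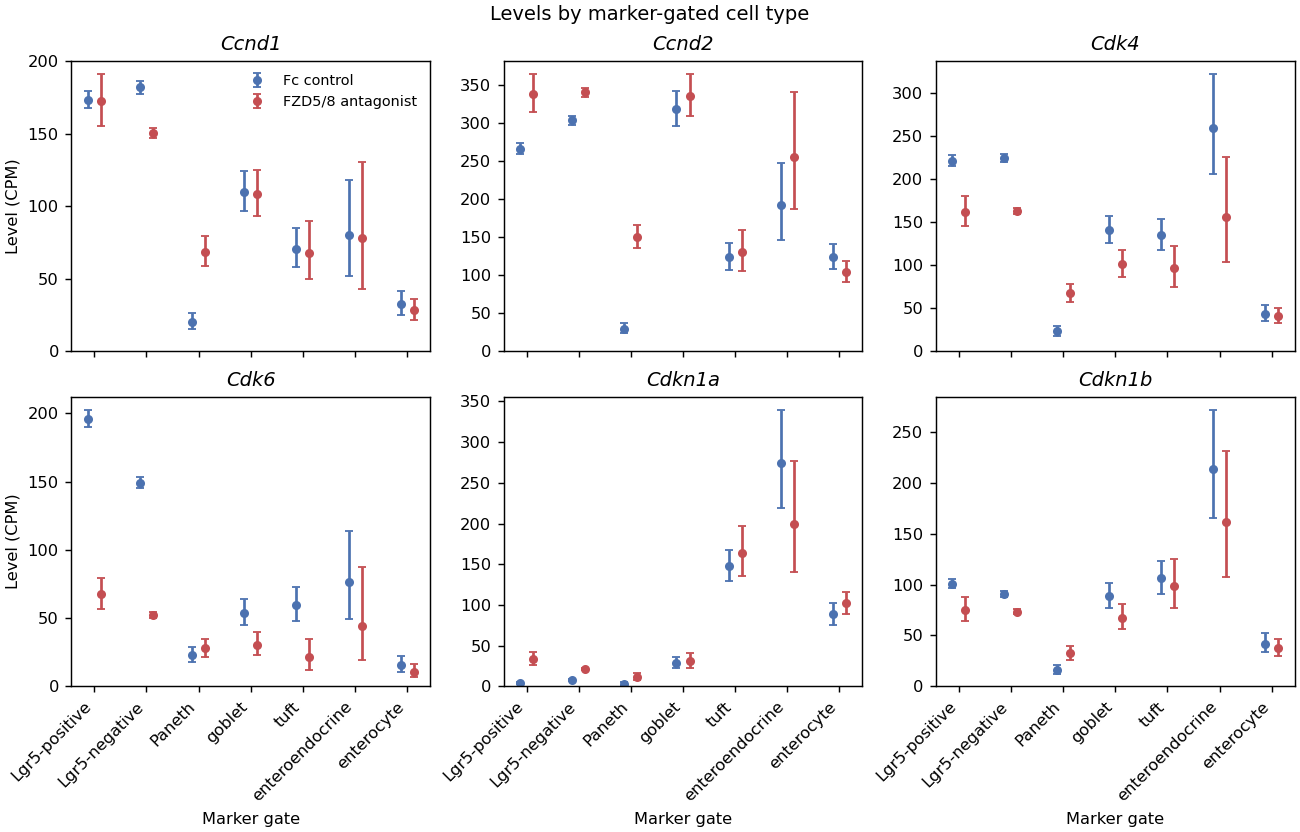
Level in CPM of 6 of the genes in each marker gate, for the Fc control (blue) and FZD5/8 antagonist (red) libraries with exact 95% Poisson intervals. Cdkn1a is high in the tuft, enteroendocrine and enterocyte gates of both libraries, and Cdk6 is high in the Lgr5-positive and Lgr5-negative gates of the control library.

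The D cyclins divided the differentiated gates. In the control library Ccnd2 in goblet-gated cells, at 318 CPM (296 to 342), overlapped the 303 (298 to 309) of Lgr5-negative cells, while it was at 123 in both tuft-gated (106 to 141) and enterocyte-gated cells (108 to 140). Ccnd1 was at 182 (178 to 186) in Lgr5-negative, 110 (96.7 to 124) in goblet-gated, 70.5 (58.1 to 84.8) in tuft-gated and 32.5 (24.8 to 41.7) in enterocyte-gated cells. In each of these differentiated gates the antagonist interval of both genes overlapped that of the control. Mitotic genes in the control library were at 2475 CPM in goblet-gated and 2540 in Lgr5-negative cells. They were at 979 in tuft-gated and 365 in enterocyte-gated cells, and their part in the D cyclin levels was not tested. Ccnd3 in tuft-gated cells, at 32.5 (24.2 to 42.6), was close to goblet-gated cells at 30.7 (24.0 to 38.7), and enterocyte-gated cells were at 7.98 (4.47 to 13.2).

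Cdk4 and Cdkn1b were highest in enteroendocrine-gated cells of the control library, at 259 CPM (205 to 321) for Cdk4, an interval that overlaps the 224 (219 to 229) of Lgr5-negative cells. For Cdkn1b they were at 214 (166 to 272), against 106 (90.8 to 123) in tuft-gated and 90.7 (87.6 to 93.8) in Lgr5-negative cells. Antagonist cells had Cdkn1b at 161 (108 to 231) in enteroendocrine-gated and 73.3 (70.8 to 75.8) in Lgr5-negative cells. So p27 transcripts were above the undifferentiated level in this gate in both libraries.

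The summed level of Cdk2 differed between the libraries in tuft-gated cells. It was at 45.6 CPM (35.7 to 57.3) in the control and 107 (84.5 to 134) with the antagonist, for a ratio of 2.35 (1.69 to 3.29), on 73 and 76 UMIs. In Lgr5-negative cells the ratio was 1.14 (1.05 to 1.23), and in goblet-gated cells 1.07 (0.751 to 1.51). Tuft markers were at a like level in the gate, 8051 and 8053 CPM, and mitotic genes at 979 and 1166. The other members had ratios with an interval including 1 in tuft-gated cells, except Cdk6 and Cdk4, the latter at 0.715 (0.536 to 0.944).

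In Paneth-gated cells nearly all members were higher with the antagonist, as were most genes. Of the 9 members with 20 or more UMIs there, 8 counted as higher, beside 76.8% of 7276 genes, and 0 as lower, beside 1.07%, and Cdk6 was neither. The median log2 ratio over all these genes was 1.49, so the members' count is no result about them. Ccnd2 was at 29.3 CPM (23.4 to 36.1) in the control and 150 (136 to 166) with the antagonist, for a ratio of 5.13 (4.06 to 6.55). Ccnd1 was at 20.2 (15.4 to 26.0) and 68.3 (58.6 to 79.1), and Cdk4 at 22.9 (17.8 to 29.0) and 66.8 (57.2 to 77.5). Cdkn2c had 0 UMIs in the control gate and 17 in the antagonist gate.

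Those gates differed in make-up as well. Paneth markers took 618342 CPM in the control and 407082 in the antagonist gate, mitotic genes 304 and 1269, and enterocyte markers 122 and 2473. Median depth was 1351 and 2940.5 UMIs, and the control gate held 2972384 UMIs in its 149 cells. The part of these differences in the members' ratios was not tested.

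Other genes of the G1 to S transition included more higher and fewer lower genes than the background share. Of 42 listed, 40 had 20 or more UMIs, and 3 were lower (Ccng2, Myc and Mycl) and 8 higher (Ccne2, Cdkn2b, Cdkn2d, Rb1, E2f2, E2f7, E2f8 and Mycn) in the antagonist library, beside 17.1% and 5.74% of all genes, with a median log2 ratio of 0.05. E2f2 was at 10.5 CPM in the control and 22.3 in the antagonist library, and E2f8, a repressor of the E2F family, at 22.6 and 46.5. At the other end, Myc was at 54.0 and 34.7, and Rbl2, a relative of the retinoblastoma gene, at 23.7 and 17.4. The second cyclin E gene, Ccne2, was at 14.2 and 24.1, in the same direction as Ccne1.

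Cdkn1a is a classic target of p53. Over all cells, of 20 other p53 targets measured 4 were lower in the antagonist library (Bbc3, Trp53inp1, Sesn2 and Btg2), near the 17.1% of all genes, and 0 were higher, beside 5.74%, with a median log2 ratio of -0.15, as over all genes. Trp53inp1 was at 20.4 CPM in the control and 5.25 in the antagonist library, and Btg2 at 62.8 and 38.1. In cells with mitotic transcripts 6 of the 20 were lower, beside 15.6% of all genes, and 0 were higher, beside 5.39%. In cells without, 2 of 16 measured were lower, beside 13.8%, and 1, Fas, was higher, beside 10.3%. Over all cells Fas was just short of 1.5-fold, at 3.16 and 4.73 CPM. Among targets with 20 CPM or more in a library, the highest ratios were those of Perp, at 47.7 and 62.7, and Sesn1, at 20.1 and 21.4, neither past 1.5-fold.

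Of 16 Wnt targets, 15 were measured, 14 were lower in the antagonist library, beside 17.1% of all genes, and 0 higher, with a median log2 ratio of -1.94. Ascl2, a stem cell factor, was at 67.6 CPM in the control and 6.99 in the antagonist library. Myc was the second mildest of the named targets, and Ephb2, at 39.3 and 29.1, the 1 measured target short of 1.5-fold. The log2 ratio of Cdk6 was -1.56 and that of Ccnd1 was -0.19, and whether either responds to Wnt signals in these cells was not tested.

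Genes with the most similar pattern to each member were sought over 17 points, each a gate of 1 library with 50 or more cells, by Pearson's r of log2 levels (10 added to CPM) among 8139 genes. The points share libraries and depth, so r is a description. The control Paneth gate, where Paneth markers took 618342 CPM, was the lowest point of each member except Cdk6 and Cdk2. Its part in r was not tested. Cdk6 was closest to Cdca7 (r = 0.99), then Efna4 and Clca3b (both 0.97). Ccne1 and Cdkn2c shared their closest gene, Ccne2 (0.92 and 0.95). Cdkn1a was closest to Arhgef2, Atp6v0d1 and Atp6v0a1 (all 0.93), Ccnd1 to Prmt5 (0.98) and Ccnd2 to Taf15 (0.95). Cdk4 was closest to Hnrnpr (0.99), Ccnd3 to Fam193b (0.97), Cdkn1b to Mpg (0.97) and Cdk2 to Ints14 (0.94).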

How the data were processed

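The deposited files hold raw UMI counts per gene and cell barcode. Per the submitters' processing notes the authors used Cell Ranger and GRCm38 (mm10), with software version 3.1.0 per the file headers. The sources used here do not say how the authors chose barcodes or which annotation they counted on. A cell was kept with 500 or more genes and no more than 20% of its UMIs from mt- genes. Doublets were not removed. UMIs were summed per library and gate and divided by the gate's total. Kept cells held 66206242 UMIs in the control and 54328008 in the antagonist library. Intervals are at 95% for counting error only: exact Poisson for levels, exact conditional binomial for ratios, and Clopper-Pearson for shares. The ratios, their intervals and the calls were tried on simulated Poisson counts with known folds. That setting holds counting error only, so it cannot show how they fare with variation between mice, cells or libraries.

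Marker gates needed 10% of UMIs and 4 markers (Paneth), 2% and 4 (goblet, enterocyte) or 0.2% and 3 (tuft, enteroendocrine). The members and lists were chosen with earlier results of these data known. All members are named, and of each other list the 2 highest and 2 lowest ratios among genes with 20 CPM or more in a library, plus genes counted past 1.5-fold. Ccne2, Fas and the Cdk2 value in tuft-gated cells were singled out after their values were seen. Thinning drew 3000 UMIs per cell without replacement. Gene coordinates came from GENCODE M21. Alternatives were other cell filters, scalings, cell weights, thresholds and gates. Python 3.11.15, numpy 2.4.6, scipy 1.17.1, pandas 2.3.3 and matplotlib 3.10.9 were used.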

Additional observations from a re-analysis of the deposited data

How the results depend on the processing

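Over all cells each member kept its direction under all 12 alternatives, with Cdk6 between -1.74 and -1.31 and Cdkn1a between 0.56 and 1.73 (log2). Of 560 member values under alternatives, 434 moved by less than their counting interval, 116 moved further and 10 changed sign although their interval as reported excluded 1. Among the 434 and 116, 9 also changed sign from a value whose interval included 1, all for with over without mitotic transcripts in the antagonist library: Ccnd3 under 3 alternatives (0.022 to 0.49, log2), Cdk2 under 4 (-0.081 to -0.013) and Cdk6 under 2 (-0.055 to -0.0027). The cause was not tested for any of them. Leaving out the differentiated gates, the Lgr5-positive cells or shared barcodes, and weighting 12 strata alike, were chosen after seeing the data; where all cells or strata weighed alike, calls go by fold alone.

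All cells: weighting every cell alike gave 1207 higher genes (789 as reported), and a lower fold threshold 1581 higher and 4092 lower (2349). Lower members were 2 without the deepest 5% of cells and 4 at the lower threshold. With mitotic transcripts: lower members were 2 in thinned cells and 3 at the lower threshold, and higher members 1 in thinned cells and 1 with the gate read in thinned cells. Without: lower members were 5 in thinned cells, 4 with the gate read in thinned cells and 5 at the lower threshold, and 1 was higher at a minimum of 100 UMIs. With over without in the control library, 4 were higher with the gate read in thinned cells and 4 at the lower threshold. In the antagonist library 5 were higher with 1000 genes and 10% mt-, in thinned cells, with totals lacking mt-, Rpl and Rps, and at the lower threshold, and 8 with the gate read in thinned cells.

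Of values whose interval excluded 1, signs changed for antagonist over control as follows (log2). With the gate read in thinned cells, Cdk2 was at -0.014 with mitotic transcripts, and without them Ccnd2 was at -0.19 and Cdk2 at -0.20. In thinned cells without mitotic transcripts Ccnd2 was at -0.13 and Cdk2 at -0.26. For with over without, weighting every cell alike gave -0.10 for Ccnd1 and -0.076 for Ccnd2 in the control and -0.027 for Ccnd2 in the antagonist library. With the gate read in thinned cells, Ccnd3 was at 0.15 and Cdk6 at 0.18 in the control library.

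No paired analysis was possible because each group has 1 library. Depth limits the antagonist Lgr5-positive cells without mitotic transcripts, 13 cells, and the enteroendocrine gates.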

Other observations

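Members were also read together in single cells of the undifferentiated gates after thinning to 3000 UMIs. Ccnd1 was detected in 42.3% (40.7 to 43.9) of control cells with a Ccnd2 UMI and in 37.6% (35.9 to 39.4) of those without one. Among antagonist cells the shares were 35.6% (33.7 to 37.5) and 28.4% (26.3 to 30.6). Cells with Ccnd2 thus held Ccnd1 more often in both libraries, in counts of cells that are not replicates. Cdkn1b was detected in 23.3% (21.9 to 24.7) of control cells with Ccnd2 and 25.3% (23.8 to 26.8) of those without, with overlapping intervals.

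Cdk6 was detected in 45.1% (42.4 to 47.9) of the 1308 control cells that kept an Lgr5 UMI after thinning, against 35.1% (33.9 to 36.4) of the 5455 that did not. In the antagonist library 41 cells kept one, and Cdk6 was in 31.7% (18.1 to 48.1) of them, against 13.4% (12.4 to 14.5) of the other 4207. For Ccnd1 the control shares were 40.6% (37.9 to 43.3) and 40.1% (38.8 to 41.4).

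Chosen after their values were seen, Cdkn2b, an inhibitor of Cdk4 and Cdk6 like Cdkn2c, was at 6.89 CPM in the control and 17.6 in the antagonist library, and Mycn was at 2.28 and 6.96, while Myc went the other way.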
